A study of Mus musculus with 4 samples.

Results

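The insulin-like growth factor (IGF) axis of fetal brown adipose tissue (BAT) was examined through 10 genes chosen by name: the growth factors Igf1 and Igf2, the imprinted transcript H19, the receptors Igf1r and Igf2r, the IGF2 mRNA-binding protein genes Igf2bp1, Igf2bp2 and Igf2bp3, and the fetal regulators Lin28b and Hmga2. Their symbols were matched to the Ensembl identifiers of a count table of 22298 genes. Of the 10 genes, 9 were analysed, H19 was not analysed here, and 7 had counts high enough to be tested among 12888 genes. BAT was taken from C57BL/6 fetuses (C57BL/6J in the study's methods), labelled male, at E18.5, shortly before birth. Control dams drank tap water and fructose dams drank water with 20% (w/v) fructose during pregnancy, and each group had 2 RNA-seq libraries. The number of fetuses and litters behind a library is not given in the sources used here, so p-values measure only the spread between these libraries, which may be technical.

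IGF2 and IGF1 are secreted growth factors that act through the tyrosine kinase receptor IGF1R, while IGF2R takes up IGF2 and carries it to lysosomes. In most mouse fetal tissues Igf2 is read from the paternal allele, and Igf2r and H19 from the maternal allele. The IGF2BP proteins are oncofetal RNA-binding proteins that bind Igf2 and many other mRNAs and regulate their stability and translation, and in brown fat IGF2BP2 is known to restrain the translation of Ucp1 mRNA. LIN28B blocks the maturation of let-7 microRNAs, which in turn repress Hmga2, Lin28b and the Igf2bp genes, so that these genes form a fetal growth network that is silenced as tissues mature.

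Total counts were 18542897 to 19224529 in the control libraries and 22461298 to 23645147 in the fructose libraries, and libraries of the same group differed by more than counting noise (chi-square per degree of freedom of 11.4 in control and 7.47 in fructose). The libraries stood apart by group in ways that touch every result here. Y-linked genes had 422 and 390 counts in control and 0 and 0 in fructose, although all libraries are labelled male, so the maternal drink and this difference cannot be told apart and no result can be given without it. Mitochondrially encoded genes took 5.89% and 6.49% of counts in control and 10.8% and 11.2% in fructose. All 10 skeletal muscle markers were called higher in fructose, beside 15.5% of all tested genes. Their summed levels were 293 and 388 CPM (counts scaled to library size) in control and 851 and 665 CPM in fructose. Brown adipocyte markers, among them Ucp1, summed to 23870 to 25830 CPM in control and 22100 to 23860 CPM in fructose, so the tissue label was met in every library. Of these 10 markers, 2 were called higher (Ppargc1a and Ebf2) and 2 lower (Adipoq and Cebpa), beside 15.5% and 10.7% of all tested genes. Of 7 tested erythroid markers, 5 were called lower, beside 10.7% of all tested genes. Summed levels of this list were 19190 and 15260 CPM in control and 11750 and 12130 CPM in fructose. The trends of fold change on transcript length and GC content were also removed from each library. All 10 muscle markers were then called higher and 0 erythroid markers were called. Of the brown adipocyte markers, 2 were then higher (Ppargc1a and Cidea) and 1 lower (Fabp4). Over all tested genes 4.15% were then higher and 4.96% lower. Of 8 liver markers, Afp, Ttr, Fgb and Apob were at 0 in all libraries, and Alb, Apoa1 and Ahsg had 0 to 2 counts. The last, Trf, had 12622 and 5301 counts in control and 10391 and 11757 in fructose. The part of these differences in the results below was not tested, and in bulk tissue fewer cells of a type and less RNA per cell cannot be told apart.

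The let-7 family ties 8 of the 9 analysed genes together at the level of sequence. Its 8 mature 5p forms listed in RefSeq (GRCm38.p6) share the seed GAGGUAG, which spans bases 2 to 8 and is shown in capitals in the most familiar of them.
mmu-let-7a-5p: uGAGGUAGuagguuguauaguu
The longest annotated 3′ UTR of each gene (GENCODE M21, GRCm38) was searched on the transcript strand for CTACCTCA, the 8 letters that pair with the seed followed by an A. A single match was found in Igf1, Igf1r, Igf2r, Igf2bp2, Igf2bp3, Hmga2 and Lin28b, 3 matches in Igf2bp1 and none in Igf2. The windows below show each match in capitals with the bases just before it, for the 8 genes that held one. Further matches to CTACCTC without the final A, in Igf1r, Igf2bp1, Hmga2 and Lin28b, are not shown.
Hmga2, chr10:120364224-120364245, minus strand: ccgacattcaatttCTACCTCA
Lin28b, chr10:45381022-45381043, minus strand: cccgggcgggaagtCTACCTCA
Igf2bp1, chr11:95961778-95961799, minus strand: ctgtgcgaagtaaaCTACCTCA
Igf2bp1, chr11:95959357-95959378, minus strand: agcagtgctattaaCTACCTCA
Igf2bp1, chr11:95958763-95958784, minus strand: tataaatggatgaaCTACCTCA
Igf2bp2, chr16:22059473-22059494, minus strand: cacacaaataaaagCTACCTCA
Igf2bp3, chr6:49086787-49086808, minus strand: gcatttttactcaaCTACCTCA
Igf1r, chr7:68229111-68229132, plus strand: tttcaaacatttatCTACCTCA
Igf1, chr10:87932080-87932101, plus strand: aatatgtcatctacCTACCTCA
Igf2r, chr17:12683036-12683057, minus strand: acctgctccgtgccCTACCTCA
Over all 20946 genes with an annotated 3′ UTR, 3.07% held this site. Among the 8168 genes whose 3′ UTR was as long as those of the 9 genes (1304 to 7267 bases), the share was 5.44%. The genes were chosen by name as IGF axis genes. Several of them are known let-7 targets, so the count of 8 is a description, and a match is not evidence of binding.

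Levels of different genes were compared as CPM per kilobase of the longest annotated transcript, with CPM scaled by TMM normalization. In control BAT Igf2 stood highest with a mean of 204.7 CPM per kb, followed by Igf2r at 14.8 and Igf1 at 3.12. Igf2bp2 (0.930) and Igf1r (0.915) came next and could not be ordered, since their library values overlapped. Igf2bp3 (0.629) and Igf2bp1 (0.409) followed, each with library values apart from the neighbouring genes. Hmga2 (0.0215) and Lin28b (0.00513) closed the order, both below the level that 3 counts would give. In fructose BAT the first 3 places were held by the same genes, with Igf2 at 222 CPM per kb, Igf2r at 16.5 and Igf1 at 4.67. Igf1r (1.44) stood above Igf2bp2 (1.19) with no overlap there, and Igf2bp2 overlapped Igf2bp3 (1.08).

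**Figure D1:**
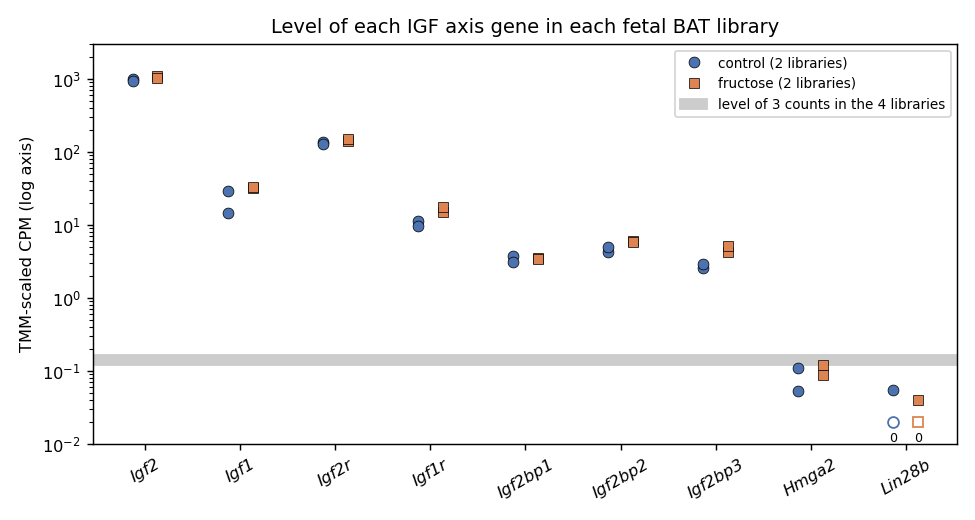
TMM-scaled CPM (log axis) of the 9 analysed genes in each library, with blue circles for the 2 control and orange squares for the 2 fructose libraries. Open symbols marked 0 are libraries with no count, drawn at an arbitrary low position, and the grey band is the level of 3 counts (0.122 to 0.166 CPM). Igf2 lies highest, at 939 to 1083 CPM, and Hmga2 and Lin28b lie at or below the band. Both fructose libraries lie above both controls in 6 of the 7 tested genes, all but Igf2bp1, beside 33.4% of all tested genes.

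Igf2, the main fetal IGF, was abundant and close to equal in both groups. Its gene (ENSMUSG00000048583, chr7:142650766-142666816, minus strand) had 18848 and 16927 counts in control and 24491 and 24898 in fructose, which is 995 and 939 CPM against 1083 and 1016 CPM. Both fructose libraries lay above both controls, but by little against the spread within the groups: the means were 967 ± 39.6 CPM and 1049.6 ± 47.0 CPM (SD, n = 2 libraries each). The log2 fold change of fructose against control was 0.12 (95% interval -0.07 to 0.31), and the quasi-likelihood test of edgeR did not call it (Benjamini-Hochberg adjusted p = 0.34). Igf2 took 0.0913% to 0.109% of all counts and ranked 125 to 156 among genes by count. The annotated gene Gm49394 on the same strand shares 3596 of the 5723 exonic bases of Igf2 and had 16 to 56 counts, so how the counting divided reads between them is uncertain.

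Igf1, the IGF that takes over after birth, differed more between the control libraries than between the groups. It had 556 and 264 counts in control and 732 and 822 in fructose (ENSMUSG00000020053, chr10:87858265-87937042, plus strand), or 29.3 and 14.6 CPM against 32.4 and 33.6 CPM. The fructose libraries were nearly level with each other and above both controls, with control replicate 2 at the bottom. Only 2.88% of the tested genes lay as far apart between the controls as Igf1 (0.998 on the log2 scale). The log2 fold change was 0.58 (standard error 0.22, 95% interval 0.10 to 1.06), which edgeR did not call (adjusted p = 0.070). DESeq2 gave 0.58 with a wider standard error of 0.48 (adjusted p = 0.44). Without the filter on low counts edgeR called Igf1 (0.59, adjusted p = 0.0054), so the verdict depended on tool and filter. In edgeR the log2 fold change was 1.17 without control replicate 1 and 0.17 without control replicate 2. It was 0.61 without fructose replicate 1 and 0.56 without fructose replicate 2. The direction turned when the trend of fold change on GC content was removed from each library (-0.03) and when that on transcript length was removed as well (-0.23). The transferrin gene Trf moved alike between the controls, with 12622 and 5301 counts against 10391 and 11757 in fructose. It is on the liver marker list, whose other genes had 0 to 2 counts in each library. The macrophage markers summed to 145 and 107 CPM in control and 114 and 125 CPM in fructose. The part of these in the Igf1 values was not tested.

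Igf1r, the signalling receptor, rose in fructose BAT. It had 214 and 173 counts in the controls and 340 and 437 under fructose (ENSMUSG00000005533, chr7:67952827-68233668, plus strand), or 11.3 and 9.59 CPM against 15 and 17.8 CPM. Both fructose libraries lay above both controls, and the means were 10.4 ± 1.20 CPM and 16.4 ± 1.98 CPM (SD, n = 2 each). The log2 fold change was 0.65 (standard error 0.15, 95% interval 0.32 to 0.98), a rise of 57.4% (Benjamini-Hochberg adjusted p = 0.0093 by edgeR's quasi-likelihood test and 0.013 by DESeq2). The call was lost without fructose replicate 2 (0.53, edgeR adjusted p = 0.072). At 11409 bases Igf1r has the longest transcript of the 9 genes, and with the trend of fold change on transcript length removed from each library its log2 fold change was 0.10 (edgeR adjusted p = 0.67).

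Igf2r, the clearance receptor, was not called. It had 2572 and 2298 counts in control and 3203 and 3696 in fructose (ENSMUSG00000023830, chr17:12682406-12769664, minus strand), or 136 and 127 CPM against 142 and 151 CPM. The fructose libraries lay just above the controls, with a log2 fold change of 0.15 (95% interval -0.03 to 0.33, edgeR adjusted p = 0.19). The direction turned with the length trend removed, where the log2 fold change was -0.29 and passed the threshold (edgeR adjusted p = 0.027), and with the GC content trend removed as well it was -0.23 (edgeR adjusted p = 0.097). Per kilobase, Igf2 exceeded Igf2r by 13.8 and 13.9 times in control and by 14.4 and 12.7 times in fructose, ranges that overlap. Igf2r exceeded Igf1r by 15.4 and 17.1 times in control and by 12.1 and 10.9 times in fructose, so the balance of clearance to signalling receptor mRNA was lower in both fructose libraries than in both controls, a difference given without a test.

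Of the 3 IGF2 mRNA-binding protein genes, only Igf2bp3 passed the test. Igf2bp3 (ENSMUSG00000029814, chr6:49085223-49214957, minus strand) had 49 and 52 counts in control and 95 and 126 in fructose, or 2.59 and 2.88 CPM against 4.20 and 5.14 CPM. The controls were close together and both fructose libraries stood above them, fructose replicate 2 highest. It rose by 71.0% (log2 fold change 0.77, standard error 0.24, 95% interval 0.25 to 1.3), and edgeR called it (quasi-likelihood test, adjusted p = 0.034). The call was fragile: DESeq2 gave an adjusted p of 0.11, and it was lost without control replicate 1 (0.70, edgeR adjusted p = 0.068), without fructose replicate 2 (0.62, edgeR adjusted p = 0.25) and with both trends removed (0.57, edgeR adjusted p = 0.15). Malsu1, on the opposite strand, shares 1529 of the 8159 exonic bases of Igf2bp3 and had 709 to 830 counts, with a log2 fold change of -0.18 (edgeR adjusted p = 0.17). The counting's treatment of strand is not given in the sources used here, so reads of the pair may be mixed.

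Igf2bp2, the family member with known roles in adult fat and muscle, had 80 and 90 counts in control and 136 and 142 in fructose (ENSMUSG00000033581, chr16:22059009-22163299, minus strand), or 4.22 and 4.99 CPM against 6.01 and 5.80 CPM. Its fructose libraries were above its controls, but the log2 fold change of 0.36 was not called (95% interval -0.08 to 0.80, edgeR adjusted p = 0.21). Igf2bp1 (ENSMUSG00000013415, chr11:95957163-96005940, minus strand) had 71 and 56 counts in control and 80 and 85 in fructose, or 3.75 and 3.11 CPM against 3.54 and 3.47 CPM. Its groups overlapped, and the log2 fold change was 0.03 (95% interval -0.49 to 0.55, edgeR adjusted p = 0.94). This interval still allows a change of the size seen for Igf2bp2. As a share of the family's summed level per kilobase, Igf2bp3 took 31.4% and 32.5% in the control libraries, against 37.1% and 42.8% under fructose. Igf2bp1 took 23.6% and 18.2%, against 16.2% and 15%. Igf2bp2 held 42.3% to 49.4% in all 4 libraries. Because the shares depend on each other, a lower share of Igf2bp1 need not mean a lower level, and its CPM overlapped between groups. For Igf2bp1 and Igf2bp3, shares within a group differed by more than the gap between the groups. These shares are a description of low counts, and a shift in them was not tested. The 3 genes share no exact 31-base stretch of annotated transcript.

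Lin28b and Hmga2, the fetal regulators upstream and downstream of let-7, were at the edge of detection. Lin28b (ENSMUSG00000063804, chr10:45376620-45486395) had 0 and 1 counts in control and 0 and 1 in fructose, and Hmga2 (ENSMUSG00000056758, chr10:120361275-120476469) had 1 and 2 in control and 2 and 3 in fructose. All of these are at or under 3 counts, so neither gene was tested and no fold is given. A difference between the groups was not detectable at this depth.

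Read together, all 7 tested genes had a log2 fold change above 0, with a median of 0.359 beside 0.0025 over all tested genes. Of the 7, 2 were called higher and 0 lower by edgeR at an adjusted p under 0.05, where 15.5% of all tested genes were called higher and 10.7% lower. The study's thresholds, an unadjusted p under 0.05 together with a fold change above 1.3, were here applied to edgeR. By these, 3 of the 7 were higher (Igf1, Igf1r and Igf2bp3) and 0 were lower, beside 17.6% and 6.18% of all tested genes. The study used DESeq2, by which the unadjusted p was 0.23 for Igf1, 0.0016 for Igf1r and 0.030 for Igf2bp3. Both fructose libraries lay above both controls in 6 of the 7 genes and below in 0, beside 33.4% above and 31.6% below over all tested genes. The 2 called genes are 28.6% of the 7, a share that 1 called gene fewer would bring under the background.

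**Figure D2:**
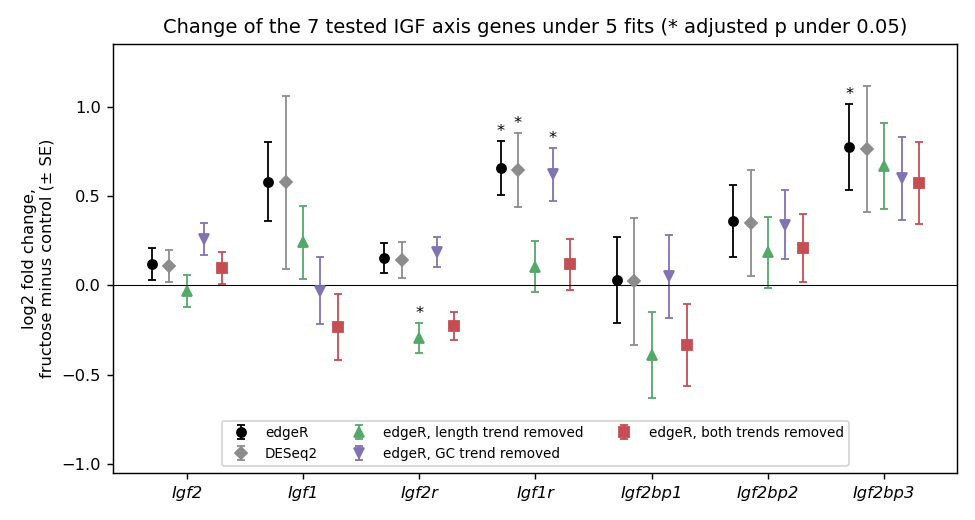
Log2 fold change of fructose against control for the 7 tested genes, with bars of ± 1 standard error, under edgeR (black), DESeq2 (grey) and edgeR with the transcript length trend (green), the GC content trend (purple) or both trends (red) removed from each library. Asterisks mark an adjusted p under 0.05. Igf1r and Igf2bp3 are marked under edgeR, Igf2r is marked as lower with the length trend removed, and none is marked with both trends removed.

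These genes have long transcripts, and in these libraries the fold change followed transcript length. Over 12884 tested genes with an annotated transcript, the rank correlation of log2 fold change with the length of the longest transcript was 0.501, and with its GC content -0.501, given as a description of genes that share the same 4 libraries. The same correlations between libraries of one group were 0.0155 and 0.133 for the controls and 0.168 and -0.205 for fructose. The 7 tested genes had a median transcript of 7052 bases, against 3433 over all tested genes. With both trends removed their median log2 fold change was 0.0979, and 0 were called higher and 0 lower, beside 4.15% and 4.96% of all tested genes. Of the 7, 3 (Igf1, Igf2r and Igf2bp1) then lay below 0, at -0.23, -0.23 and -0.33. Transcript length and the maternal drink cannot be told apart as sources of the shared direction, since the trend itself separates the groups.

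**Figure D3:**
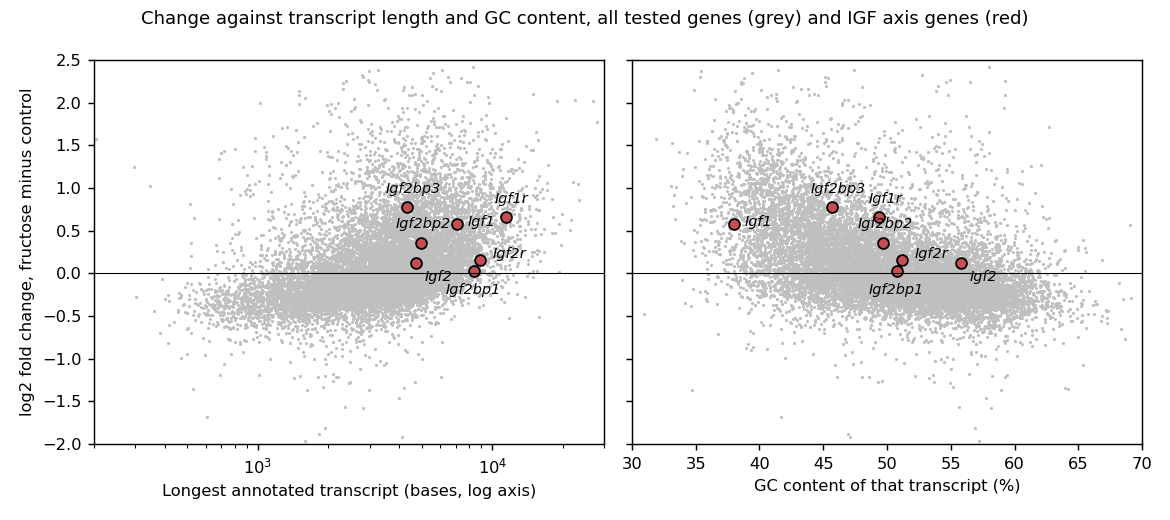
Log2 fold change of fructose against control for all tested genes (grey) and the 7 IGF axis genes (red), against the longest annotated transcript (left, log axis, bases) and its GC content (right, %). A few genes lie beyond the plotted range. The red points lie in the long part of the cloud on the left, where the grey points lie mostly above 0, and Igf2bp3 lies highest of them.

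Of 642 genes with the 8-letter site, 477 were tested, with 108 called higher (22.6%) and 27 lower (5.66%) beside 15.5% and 10.7% of all tested genes. Their median log2 fold change was 0.153. They too have long transcripts, with a median of 4830 bases, and with both trends removed 19 were called higher (3.98%) and 34 lower (7.13%), beside 4.15% and 4.96% of all tested genes, and their median was -0.0111. The 7 tested IGF axis genes include 6 of these genes.

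Among 13 IGF-binding protein and protease genes, 9 were tested, with 1 called higher and 1 lower (11.1% each, beside 15.5% and 10.7% of all tested genes) and a median log2 fold change of -0.179. Igfbp5, a matrix-bound IGF carrier, rose from 214 and 233 CPM to 285 and 306 CPM (log2 fold change 0.40, edgeR adjusted p = 0.0062). Igfbp4, a carrier that withholds IGFs from their receptor, was lower, at 229 and 201 CPM in control against 179 and 166 CPM in fructose (log2 fold change -0.32, edgeR adjusted p = 0.023). The groups of both genes did not overlap. Over all tested genes, both fructose libraries lay above both controls in 33.4% and below in 31.6%. With both trends removed neither was called, at 0.17 and -0.26 on the log2 scale. The call of Igfbp4 was also lost without control replicate 1 (-0.22, edgeR adjusted p = 0.065), without fructose replicate 2 (-0.26, edgeR adjusted p = 0.17), with library size scaling only (-0.26, edgeR adjusted p = 0.053) and with the GC trend removed (-0.19, edgeR adjusted p = 0.16).

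Of 7 tested receptor partners, 1 was called higher (14.3%, beside 15.5% of all tested genes) and 0 lower (beside 10.7%), and the median was -0.022. Insr, the insulin receptor, which forms hybrids with IGF1R and also binds IGF2, rose from 30.8 and 29.3 CPM to 49.8 and 54.4 CPM (log2 fold change 0.79, standard error 0.094, edgeR adjusted p = 0.00034). It rose beside Igf1r, and as for Igf1r the call was lost with both trends removed (0.27, edgeR adjusted p = 0.084). With the length trend alone removed Insr kept its call (0.32, edgeR adjusted p = 0.031), unlike Igf1r (0.10, edgeR adjusted p = 0.67). Grb10, an imprinted adaptor that dampens both receptors and had the highest CPM of the list (per kilobase Shc1 was higher), stood at 150 and 145 CPM in control and 164 and 156 CPM in fructose, a log2 fold change of 0.12 that was not called (edgeR adjusted p = 0.30).

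Among 7 tested regulators of the imprinted Igf2 and Igf2r loci, 2 were called higher and 1 lower (28.6% and 14.3%, beside 15.5% and 10.7% of all tested genes), with a median of 0.412. Plagl1, an imprinted zinc-finger factor that activates the Igf2 and H19 locus, had 769 and 628 counts in control and 1575 and 1843 in fructose, or 40.6 and 34.8 CPM against 69.6 and 75.2 CPM. The groups lay far apart, with a log2 fold change of 0.94 (edgeR standard error 0.098, adjusted p = 0.00019). This call held under all 17 alternative settings, with 0.67 (edgeR adjusted p = 0.0018) when both trends were removed, while Igf2 itself was not called under any of them. Its relative Plagl2 rose from 13 and 13.8 CPM to 19.6 and 22.1 CPM (log2 fold change 0.64, edgeR adjusted p = 0.0047). Trim28, the corepressor that keeps imprints methylated, was lower, at 122 and 118.5 CPM against 90.4 and 94.7 CPM (log2 fold change -0.38, edgeR adjusted p = 0.0059). With both trends removed neither Plagl2 (0.43, edgeR adjusted p = 0.052) nor Trim28 (-0.20, edgeR adjusted p = 0.14) was called.

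Of 11 tested genes of the LIN28 and let-7 pathway, 2 were called higher and 1 lower (18.2% and 9.09%, close to the 15.5% and 10.7% of all tested genes), with a median of 0.126. Tut7, a terminal uridylyltransferase that acts on let-7 precursors, rose from 12.3 and 11.5 CPM to 17.4 and 20.2 CPM (log2 fold change 0.66, edgeR adjusted p = 0.0056). Ago2, the effector protein of microRNAs, rose from 59.1 and 62.8 CPM to 86.3 and 80.4 CPM (0.45, edgeR adjusted p = 0.0034). Hmga1, the close relative of Hmga2, was lower, at 52.4 and 47.0 CPM against 35.2 and 39.3 CPM (-0.41, edgeR adjusted p = 0.010). The groups of these 3 genes did not overlap, beside 33.4% of all tested genes with fructose above and 31.6% with fructose below. With both trends removed none of the 3 was called and Ago2 stood at -0.18. Hmga1 also lost its call without fructose replicate 1 (-0.34, edgeR adjusted p = 0.072) and with the length (-0.27, edgeR adjusted p = 0.076) or GC trend alone removed (-0.18, edgeR adjusted p = 0.25). With both trends removed 0 of the 11 were called higher and 2 lower, beside 4.15% and 4.96% of all tested genes, namely Dis3l2 (-0.70) and Dicer1 (-0.35), chosen here after their values were seen. Lin28a, with 3 and 4 counts in control and 1 and 1 in fructose, and Trim71, with 0 to 1, were also too scarce to test.

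Of 8 RNA-binding proteins known to work with the IGF2BPs, 4 were called higher and 0 lower (beside 15.5% and 10.7% of all tested genes), with a median of 0.332. Matr3, a nuclear matrix RNA-binding protein, rose from 13.8 and 7.93 CPM to 19.9 and 24.7 CPM (log2 fold change 1.03, edgeR adjusted p = 0.0048). Dhx9, an RNA helicase, rose from 21.7 and 22.6 CPM to 32.5 and 34.7 CPM (0.60, edgeR adjusted p = 0.0020). Hnrnpu, a scaffold of nuclear ribonucleoproteins, rose from 67.1 and 63.1 CPM to 87.6 and 84.3 CPM (0.40, edgeR adjusted p = 0.00525), yet it was called lower with both trends removed (-0.32, edgeR adjusted p = 0.044). Ybx1, the most abundant of the list, was at 389 and 401 CPM against 381 and 419 CPM (0.02, edgeR adjusted p = 0.89). With both trends removed, 0 of the 8 were called higher and 3 lower, beside 4.15% and 4.96% of all tested genes.

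Of 9 mRNAs known as IGF2BP targets, 3 were called higher and 1 lower (33.3% and 11.1%, beside 15.5% and 10.7% of all tested genes), with a median of 0.218. The cell cycle genes Ccnd2 (log2 fold change 0.74, edgeR adjusted p = 0.0067) and Cdk6 (0.68, edgeR adjusted p = 0.0044) rose, from 14 and 9.93 CPM to 20 and 20 CPM and from 13 and 11.1 CPM to 19.1 and 19.7 CPM. Myc, named like Ccnd2 and Cdk6 because it was called, was the only one called lower. It stood at 15.2 and 12.0 CPM against 8.36 and 9.02 CPM (-0.65, edgeR adjusted p = 0.012), and at -0.47 on the log2 scale without control replicate 1. Ucp1, the uncoupling protein of brown fat, had 183908 and 224071 counts in control and 248873 and 235302 in fructose, and its CPM overlapped between groups (log2 fold change -0.10, edgeR adjusted p = 0.59). With both trends removed 0 of the 9 were called higher and 1 lower, beside 4.15% and 4.96% of all tested genes. Myc was then not called (-0.45, edgeR adjusted p = 0.097). The 1 called was Btrc, at -0.53 beside -0.02 without trend removal, a gene named after its values were seen.

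**Figure D4:**
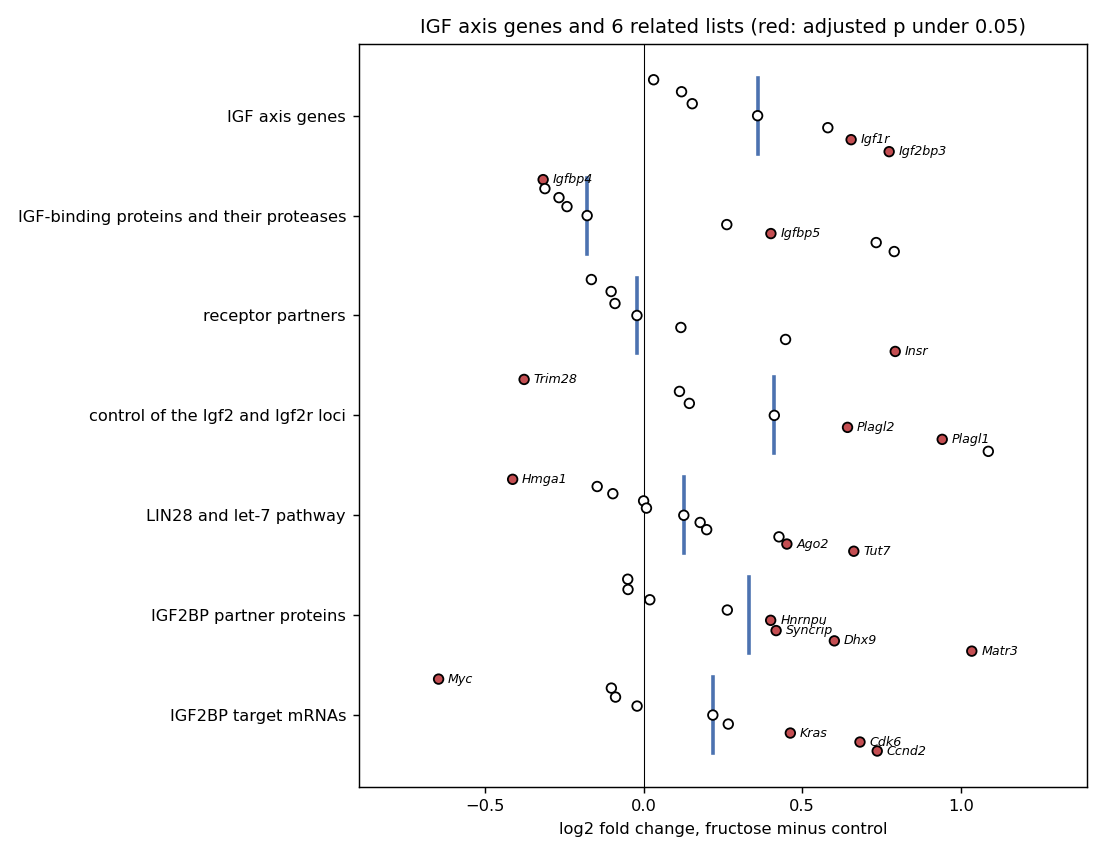
Log2 fold change of fructose against control for each tested gene of the IGF axis and of 6 related lists, with red points for genes at an edgeR adjusted p under 0.05, open points for the others and a blue bar at each list's median. Igf1r and Igf2bp3 are the red points of the first row. Plagl1 at 0.94 and Matr3 at 1.03 are the highest red points, and Myc at -0.65 is the lowest.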

How the data were processed

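RNA-seq of fetal BAT gave 4 libraries, 2 per group. The authors filtered reads with fastp, mapped them to mm10 with Bowtie2 (2.0.0.5) and TopHat2 (2.0.0), assembled transcripts with StringTie (2.2.0) and merged them with Cuffmerge. Raw read counts of each gene were deposited by the authors, neither normalized nor pooled. The counting tool, annotation release and treatment of strand are not given in the sources used here. Of 22298 genes, 22255 were matched to GENCODE M21 (GRCm38), the source of symbols, coordinates, transcript lengths and 3′ UTRs.

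Genes kept by filterByExpr (12888) were tested with edgeR 4.0.16 in R 4.3.3 (TMM, quasi-likelihood test, two-sided, no covariate), and p-values were Benjamini-Hochberg adjusted over all of them. A gene was called at an adjusted p under 0.05. DESeq2 1.42.0, other scalings and filters, trend removal (lowess, span 0.3, as offsets), the replicate number as a block and leaving out each library were alternatives. On simulated counts, 200 of 12888 genes were changed 2-fold between control and fructose. Of these 200, edgeR recovered 88.5% and called 15 unchanged genes, DESeq2 78% and 5, and edgeR with the block 88% and 14. Recovery of changes as small as those of Igf1r (1.57-fold) and Igf2bp3 (1.71-fold) was not tested. These rates are for counts simulated without a length or GC content trend. Recovery with a simulated length trend is not reported here, and no GC content trend was simulated. Whether the rates hold for the deposited libraries, which have both trends, is not known.

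The IGF axis genes and all lists were chosen with earlier results of these data known. Named genes are the IGF axis genes, up to 4 per list that were called or had the highest level, and the nearest profiles. A further gene of the IGF2BP target list is not reported here. With 2 libraries per group no test for outlying samples was possible. Counts and intervals of fold changes describe these libraries, and read counts without molecular identifiers are not independent molecules.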

Additional observations from a re-analysis of the deposited data

How the results depend on the processing

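For the IGF axis genes called higher (2), DESeq2 gave 1, removal of the length trend 0, of the GC trend 1 and of both 0, and the replicate block with length, GC or both trends removed gave 0, 1 and 0. Leaving out a library gave 1 to 3, the 1 without fructose replicate 2. Those called lower (0) were 1 (Igf2r) with the length trend removed and 0 to 0 with a library left out. Their median (0.359) was 0.104 with the length trend and 0.0979 with both trends removed, 0.103 and 0.0981 with the replicate block added, and 0.168 to 0.387 with a library left out. Of all tested genes, 2001 were called higher, and this was 1154 (length), 1091 (GC), 535 (both), 1086 (block, length) and 694 (block, both), and 1266 (without fructose replicate 2) to 2254 with a library left out. The 1379 called lower became 859 with library size only, 639 (both), 809 (block, length), 705 (block, both) and 797 at the study's thresholds, and 527 (without fructose replicate 2) to 1685 with a library left out, with 892 without fructose replicate 1. Genes with a let-7 site called higher (108) were 51 (length), 62 (GC), 19 (both), 47 (block, length) and 22 (block, both), and 72 to 127 with a library left out. Those called lower (27) were 13 with library size only, 50 (length), 13 at the study's thresholds, and 8 (without fructose replicate 2) to 37 with a library left out, with 14 without fructose replicate 1. Why these values moved was not tested. Leaving out a library leaves 1 in its group, which is assumed to vary like the other group.

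The sources used here do not state that the replicate numbers pair the libraries. The correlation of deviations was -0.0266 for the single pair, which cannot settle whether they do. With the replicate block alone 3 IGF axis genes were called higher and 0 lower, since Igf1 (0.64, edgeR adjusted p = 0.00061) joined Igf1r and Igf2bp3, and over all genes 2117 were called higher and 1441 lower.

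Over 25 named genes and 17 alternatives (425 values), 325 kept direction and side of the threshold, 61 lost the call, 6 gained it and 33 changed sign. Signs changed with the length trend removed for Igf2 (-0.0306), Igf2r (-0.294), Igf2bp1 (-0.389), Grb10 (-0.0693), Ago2 (-0.176) and Ucp1 (0.074), and with the GC trend removed for Igf1 (-0.0296) and Hnrnpu (-0.0602). With both removed they changed for Igf1 (-0.232), Igf2r (-0.229), Igf2bp1 (-0.335), Grb10 (-0.079), Ago2 (-0.175), Hnrnpu (-0.318) and Ucp1 (0.0262). With the replicate block added, values were -0.0312, -0.294, -0.383, -0.0698, -0.177 and 0.0848 for Igf2, Igf2r, Igf2bp1, Grb10, Ago2 and Ucp1 (length), -0.061 for Hnrnpu (GC), and -0.185, -0.228, -0.329, -0.0794, -0.177, -0.32 and 0.0359 for Igf1, Igf2r, Igf2bp1, Grb10, Ago2, Hnrnpu and Ucp1 (both). With a library left out, Igf2bp1 ran from -0.0969 (without control replicate 2) to 0.174, Ybx1 from -0.0484 (without fructose replicate 2) to 0.0875 and Ucp1 from -0.27 to 0.0865 (without control replicate 2).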

Other observations

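The primer pairs that the study lists for qRT-PCR in mouse were matched to 141767 annotated transcripts (GENCODE M21), in either orientation. Of 38 pairs, 35 had both primers in the transcripts without a mismatch, and 3 did not, namely those of Igf2, Igf2bp3 and Tnnc2. For Igf2 (9 annotated transcripts) and Igf2bp3 (5 annotated transcripts) the printed sequences were as follows.
Igf2 forward: aggatcaaccgtggcattgt
Igf2 reverse: tctgacttgacggacttggc
Igf2bp3 forward: gctgctgctgcttcatatccac
Igf2bp3 reverse: cctgcttgccaataatagctcca
The closest stretch of the gene's own transcripts differed at 6 bases (forward) and 5 bases (reverse) for Igf2 and at 7 and 3 bases for Igf2bp3. Over all transcripts the fewest differences were 3 and 3 for the Igf2 primers and 2 and 3 for the Igf2bp3 primers. The genome itself was not searched, and the RNA-seq values above do not depend on these primers.

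Across the 4 libraries, the genes whose mean-centred log2 CPM lay nearest to Igf2 were Cd82 (Euclidean distance 0.021), Aagab (0.0217) and Abracl (0.0247), with 217 genes within 0.1. Nearest to Igf2bp3 were Ankhd1 (0.0292), Pign (0.0412) and Mb (0.0492), with 18 genes within 0.1. Mb, the muscle oxygen carrier myoglobin, is also 1 of the 10 skeletal muscle markers, with 990 and 1080 counts in control and 1929 and 2469 in fructose. With 4 libraries such likeness is a description only.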
